A study of Mus musculus with 6 samples.

Results

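The 125 annotated transcripts with the highest FPKM in control cells held 52.2% to 73.7% of all summed FPKM, most in the triptolide libraries. They were selected on their control values, as the rows of a deposited table of 65535 transcripts that have a mouse Ensembl transcript ID and average at least 200 FPKM over the control libraries. FPKM is the number of fragments assigned to a transcript, scaled by transcript length and by the fragments mapped in the library. The members make up 0.192% of the 65189 rows with such an ID. One further row reached the threshold under a locus number of a transcript assembly and is not a member.

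The libraries come from GC2 cells, a mouse line that the labels describe as spermatocytes. They form 3 groups of 2, namely triptonide replicates 1 and 2, triptolide replicates 1 and 2, and control replicates 1 and 2. Per the labels' protocols, 100000 cells per well grew for 12 h before 24 h with 0.1 µM triptolide. No dose or time is given for triptonide, so a difference between the compounds is a difference between these libraries and not between matched doses. What the control cells received is not stated, and all groups share the same cell line and medium. Whether replicates were separate cultures is not stated, and p-values then reflect no more than the variation between these samples, which may be technical.

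Triptolide, a diterpenoid epoxide from the vine Tripterygium wilfordii, blocks transcription by binding the XPB subunit of TFIIH, the general factor that opens promoter DNA for RNA polymerase II. Triptonide has the same skeleton, with a ketone in place of a hydroxyl group. RNA left after ribosomal depletion is typically led by a few classes of transcript, among them short structured non-coding RNAs, mitochondrial transcripts and messenger RNAs for ribosomal proteins, translation factors and the cytoskeleton. Which members belong to which class was not determined here, because the table lists IDs without genes and 0 of them occur in the gene name tables used here. The label of the cell line could not be compared with marker genes for the same reason. FPKM is a relative measure, so a higher FPKM is a higher density of fragments within a library and not a number of molecules per cell. It also divides by transcript length, and fragments that several transcripts of a locus could have given must be split among them, so a transcript's value is less sure than a gene's.

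Members are called below by their rank in mean control FPKM, rank 1 being the highest, and an ID is printed for 4 of them. The control values chose the members. Control levels are therefore a description, and changes against control are given with counts over all tested transcripts beside them and support nothing about the members as a set. A choice on control values favours members that are lower in the other groups. Triptonide against triptolide is the comparison in which neither group took part in the choice of the members.

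Before any test, the summed FPKM of the table was 395459 and 376961 in the triptonide libraries, 588470 and 503572 in the triptolide libraries, and 372058 and 349558 in the control libraries. The triptolide libraries had the highest sums. The unit does not fix this sum. The members summed to 232052 and 215552 FPKM after triptonide, 433774 and 349899 FPKM after triptolide, and 204955 and 182608 FPKM in control. Everything outside the members summed to 163407 and 161409 FPKM after triptonide, 154696 and 153674 FPKM after triptolide, and 167103 and 166950 FPKM in control. Almost all of the spread between libraries in the table's sum thus lay in these 125 rows. Relative to control, the mean sum after triptolide changed by 198056 FPKM within the members and by -12842 FPKM outside them, and after triptonide by 30021 FPKM within the members and by -4619 FPKM outside them.

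The members' share of the summed FPKM was 58.7% and 57.2% in the triptonide libraries, 73.7% and 69.5% in the triptolide libraries, and 55.1% and 52.2% in the control libraries. The means were 57.9% ± 1.06 after triptonide, 71.6% ± 2.99 after triptolide and 53.7% ± 2.01 in control (SD, n = 2 each). The groups did not overlap in any of the 3 comparisons, but an exact permutation test of 2 libraries against 2 cannot give a two-sided p under 0.333, so no test was made. Rank 1 alone held 18.0% and 15.5% after triptonide, 32.7% and 22.2% after triptolide, and 18.4% and 15.4% in control. With rank 1 taken out of the members and of the total, the shares were 49.6% and 49.3% after triptonide, 60.9% and 60.8% after triptolide, and 44.9% and 43.6% in control. The 3 groups were still apart without it, and the triptolide libraries then lay closer together.

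**Figure D1:**
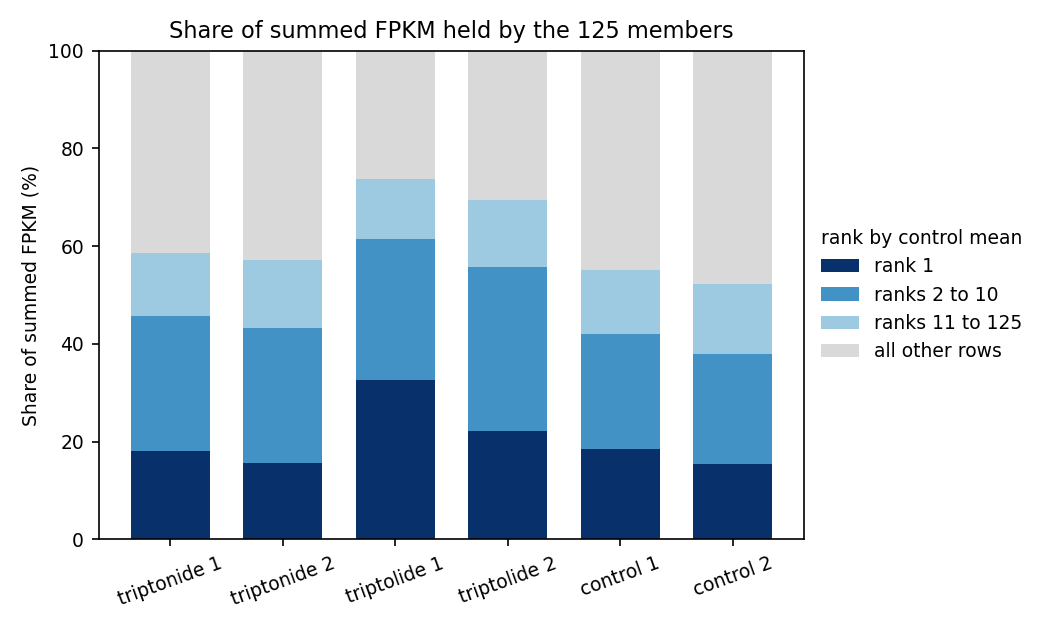
Stacked bars give, for each of the 6 libraries (x axis), the percent of summed FPKM (y axis) held by the member at rank 1, by ranks 2 to 10, by ranks 11 to 125 and by all other rows. The members' total is 73.7% and 69.5% in the triptolide bars, above the 58.7% and 57.2% of the triptonide bars and the 55.1% and 52.2% of the control bars.

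The sum was concentrated at the very top. Ranks 1 to 10 made up 77.8% and 75.7% of the members' summed FPKM after triptonide, 83.3% and 80.4% after triptolide, and 76.2% and 72.7% in control. These 10 accounted for 89.2% of the difference between the triptolide and control means in the members' sum, and rank 1 alone for 45.9%. The triptolide libraries were unlike here, as rank 1 made up 44.4% of the members' sum in replicate 1 and 31.9% in replicate 2. The 18 members with at least 1000 FPKM in control held 48.8% and 46.7% of the table after triptonide, 65.2% and 59.9% after triptolide, and 44.7% and 41.1% in control. The 20 members between 500 and 1000 FPKM held 3.68% and 3.90% after triptonide, 3.37% and 3.69% after triptolide, and 3.56% and 4.10% in control, so their groups overlapped. The 87 members between 200 and 500 FPKM held 6.15% and 6.55% after triptonide, 5.10% and 5.91% after triptolide, and 6.79% and 7.07% in control. Their share was thus lower in both triptolide libraries than in any other library, although their sum was higher there, at 30004 and 29756 FPKM after triptolide against 25275 and 24729 FPKM in control. Their sum after triptonide was 24340 and 24674 FPKM.

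Levels in single libraries show the same order of groups at most of the top ranks. Rank 1 had 71337 and 58603 FPKM after triptonide, 192449 and 111558 FPKM after triptolide, and 68595 and 53794 FPKM in control. Both triptolide values lay above all others but were 1.73-fold apart from each other. Triptonide and control overlapped at this rank. Rank 2 had 35006 and 38519 FPKM after triptonide, 42356 and 48719 FPKM after triptolide, and 30083 and 29077 FPKM in control. Rank 3 had 21271 and 21950 FPKM after triptonide, 34929 and 36058 FPKM after triptolide, and 16404 and 14250 FPKM in control. Rank 4 had 18770 and 19393 FPKM after triptonide, 29430 and 31231 FPKM after triptolide, and 13854 and 12060 FPKM in control. At ranks 2, 3 and 4 the 3 groups did not overlap, with triptonide between triptolide and control.

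Rank 5 stood apart in 1 library. The triptonide libraries held 9448 FPKM (replicate 1) and 0.0751 FPKM (replicate 2) of it, against 11935 and 15270 FPKM after triptolide and 6587 and 5598 FPKM in control. All other members had at least 0.5 FPKM in all 6 libraries, so 124 of the 125 did. This single value widened the estimated spread of rank 5 in every comparison, and its triptolide change did not pass the test, with a log2 fold change of 1.15 and a 95% interval from -10.87 to 13.17 (adjusted p = 0.869). Without triptonide replicate 2 the same change had an interval of 0.67 to 1.63 (adjusted p = 0.0180). The change of rank 5 after triptonide was -6.36 with all libraries (adjusted p = 0.447) and 0.64 without triptonide replicate 2 (adjusted p = 0.211), so its direction rested on that library.

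Ranks 6, 7 and 8 repeated the order of ranks 2 to 4 at lower levels. Rank 6 had 7468 and 7511 FPKM after triptonide, 11785 and 11258 FPKM after triptolide, and 6004 and 5369 FPKM in control. Rank 7 had 4968 and 5447 FPKM after triptonide, 5908 and 5999 FPKM after triptolide, and 5002 and 4451 FPKM in control, with overlap between triptonide and control. Rank 8 had 4706 and 4438 FPKM after triptonide, 7051 and 6689 FPKM after triptolide, and 3917 and 3427 FPKM in control. Among ranks 1 to 8, rank 7 had the smallest mean change after triptolide, a log2 fold change of 0.34 ± 0.08 (SE; adjusted p = 0.0289). The direction at ranks 7 and 8 flipped with quantile normalization, which gave -0.93 and -0.48 after triptolide (adjusted p = 0.0140 and 0.0175). Rank 9 had 3420 and 2946 FPKM after triptonide, 16267 and 7082 FPKM after triptolide, and 3682 and 2447 FPKM in control. Its triptolide libraries were 2.30-fold apart, the widest replicate gap among the members other than rank 5, and triptonide overlapped control.

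**Figure D2:**
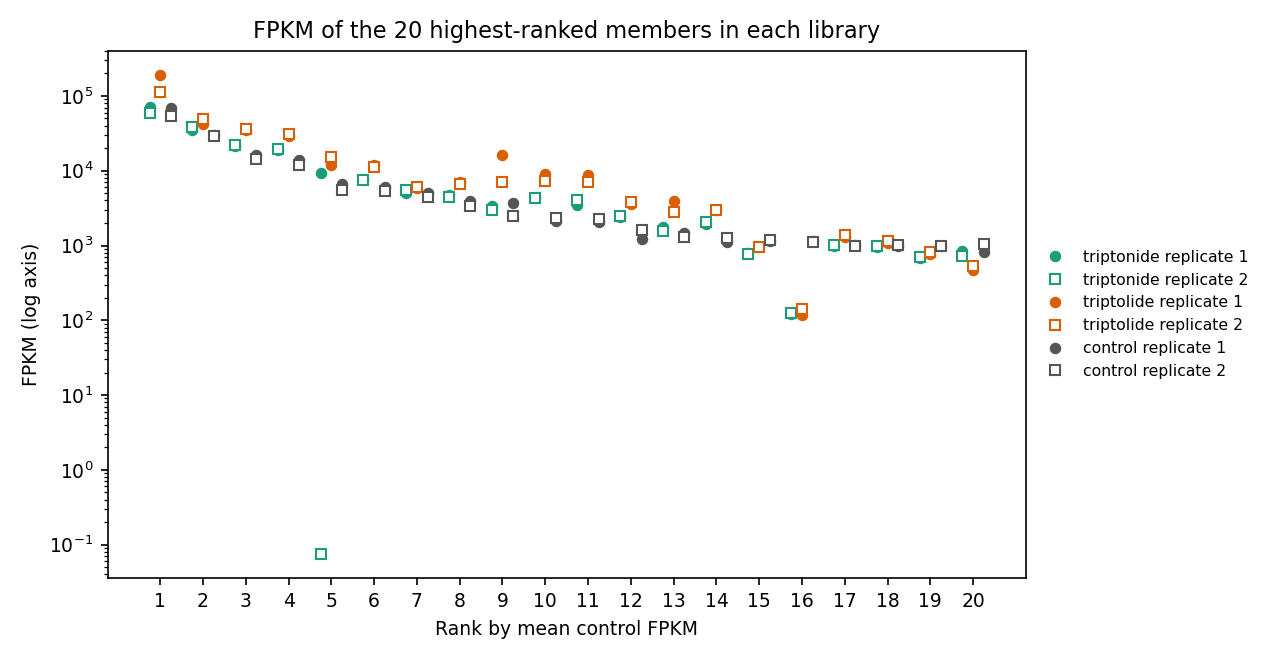
Each point is the FPKM (y axis, log scale) of a member at ranks 1 to 20 by mean control FPKM (x axis) in 1 library, with filled circles for replicate 1 and open squares for replicate 2. The triptolide points are highest at ranks 1 to 14, rank 5 has a single point at 0.0751 FPKM in triptonide replicate 2, and rank 16 is at 117 to 142 FPKM in the triptonide and triptolide libraries against 1142 and 1126 FPKM in control.

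Apart from these cases the replicates of the members lay close together. The median ratio of the higher to the lower replicate was 1.05 after triptonide, 1.05 after triptolide and 1.06 in control. A ratio above 1.5 was found for 4 members after triptonide, 2 after triptolide and 2 in control. The 95% confidence intervals of the log2 fold changes had a median width to either side of 0.17 for the members, against 0.57 for all tested transcripts. A change of a given size therefore passes the test more often among members than among other transcripts, and the shares of calls below have to be read with that in mind. One pair of members, at ranks 52 and 54, differed by at most 0.993% in every library, so the pair may not be separate measurements.

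Tests covered the 23407 transcripts that reached 0.5 FPKM in 2 or more libraries, and all 125 members were among them. Values were taken to log2(FPKM + 0.5), and every log2 fold change below is a difference on that scale. All adjusted p-values are limma's. A member is said to have risen or fallen where limma's p, adjusted by the Benjamini-Hochberg method over the 23407 transcripts, was under 0.05.

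Triptolide against control gave 71 members that rose and 30 that fell. Over all tested transcripts 12.4% rose and 23.1% fell, and the members' percentages were 56.8% and 24.0%. The remaining 24 members did not pass. Both triptolide libraries lay above both control libraries for 80 members and below them for 36, where the percentages over all transcripts were 24.1% and 46.1%. The median log2 fold change was 0.44 over the members and -0.26 over all tested transcripts, a difference of 0.69. With any 1 library left out, fewer members and fewer of all tested transcripts were called, and the members' median was 0.42 to 0.45. Quantile normalization gives all libraries the same set of values, so a transcript at the same position in every library must change by 0. Ranks 1 to 4 were left with no change. With that scaling 36 members rose and 44 fell, so the balance of rises and falls among the members flipped. Over all tested transcripts 15.5% rose and 14.9% fell there. The balance did not flip with median-of-ratios scaling, where 83 members rose and 23 fell, against 17.8% and 15.0% of all tested transcripts. Nor did it flip after scaling to the sum outside the members, where 76 rose and 27 fell, against 14.0% and 19.7%. Over all tested transcripts falls thus outnumbered rises as deposited, but not with median-of-ratios scaling or quantile normalization.

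Rises and falls of the members differed in size and place. The 71 rises had a median log2 fold change of 0.73 and the 30 falls one of -1.39. At least 2-fold changes numbered 20 in each direction, or 16.0% of the members each, against 7.13% rises and 11.4% falls of this size over all tested transcripts. Of the 20 rises of this size, 10 were among the 18 members above 1000 FPKM in control, and 1 of the 20 falls was. In that class 14 of 18 members rose and 2 fell, with a median log2 fold change of 1.18. Between 500 and 1000 FPKM 12 of 20 rose and 5 fell, with a median of 0.57. Between 200 and 500 FPKM 45 of 87 rose and 23 fell, with a median of 0.35.

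The largest rises on the log2 scale among members whose groups did not overlap were those of ranks 10 and 11. These 2, like the 2 falls described next, were picked on this same change, so their adjusted p-values are a description. ENSMUST00000083977, at rank 10, had 4254 and 4352 FPKM after triptonide, 9085 and 7352 FPKM after triptolide, and 2145 and 2362 FPKM in control. ENSMUST00000083890, at rank 11, had 3523 and 4087 FPKM after triptonide, 8670 and 7055 FPKM after triptolide, and 2081 and 2272 FPKM in control. Neither transcript overlapped between any 2 of the groups. Their values were close to each other in the control and triptolide libraries, less so in triptonide replicate 1. Whether the 2 are separate measurements was not tested. After triptolide ENSMUST00000083977 rose by 1.86 ± 0.11 log2 units (SE; adjusted p = 0.00116), a 3.65-fold ratio of group means. ENSMUST00000083890 rose by 1.85 ± 0.13 log2 units (SE; adjusted p = 0.00143), a 3.61-fold ratio. With quantile normalization these rises were 0.59 and 0.57 (adjusted p = 0.0147 and 0.0368). Rank 9, at 1.84 ± 0.44 (SE; adjusted p = 0.0339), had a mean change of similar size, and at 3.81 a higher ratio of group means, but was far less precise. Rank 1 rose by 1.27 ± 0.30 (SE; adjusted p = 0.0315). The calls of ranks 1 and 9 were lost when any library other than triptolide replicate 2 was left out, at an adjusted p of up to 0.130 and 0.136, and that of rank 7 was lost without control replicate 2, triptolide replicate 1 or triptolide replicate 2 (adjusted p = 0.0922, 0.102 and 0.112). With quantile normalization rank 1 changed by 0, a result fixed by its being first in every library.

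The largest falls were those of ranks 16 and 109. ENSMUST00000108657, at rank 16, had 120 and 125 FPKM after triptonide, 117 and 142 FPKM after triptolide, and 1142 and 1126 FPKM in control. Both compound groups lay far below control and overlapped each other. Its log2 fold change after triptolide was -3.13 ± 0.10 (SE; adjusted p = 0.000640), and the control mean was 8.74 times the triptolide mean. ENSMUST00000080511, at rank 109, had 121 and 100 FPKM after triptonide, 26.3 and 30.2 FPKM after triptolide, and 229 and 225 FPKM in control. Here the 3 groups were apart, with triptonide in the middle. Its log2 fold change after triptolide was -2.99 ± 0.12 (SE; adjusted p = 0.000718).

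**Figure D3:**
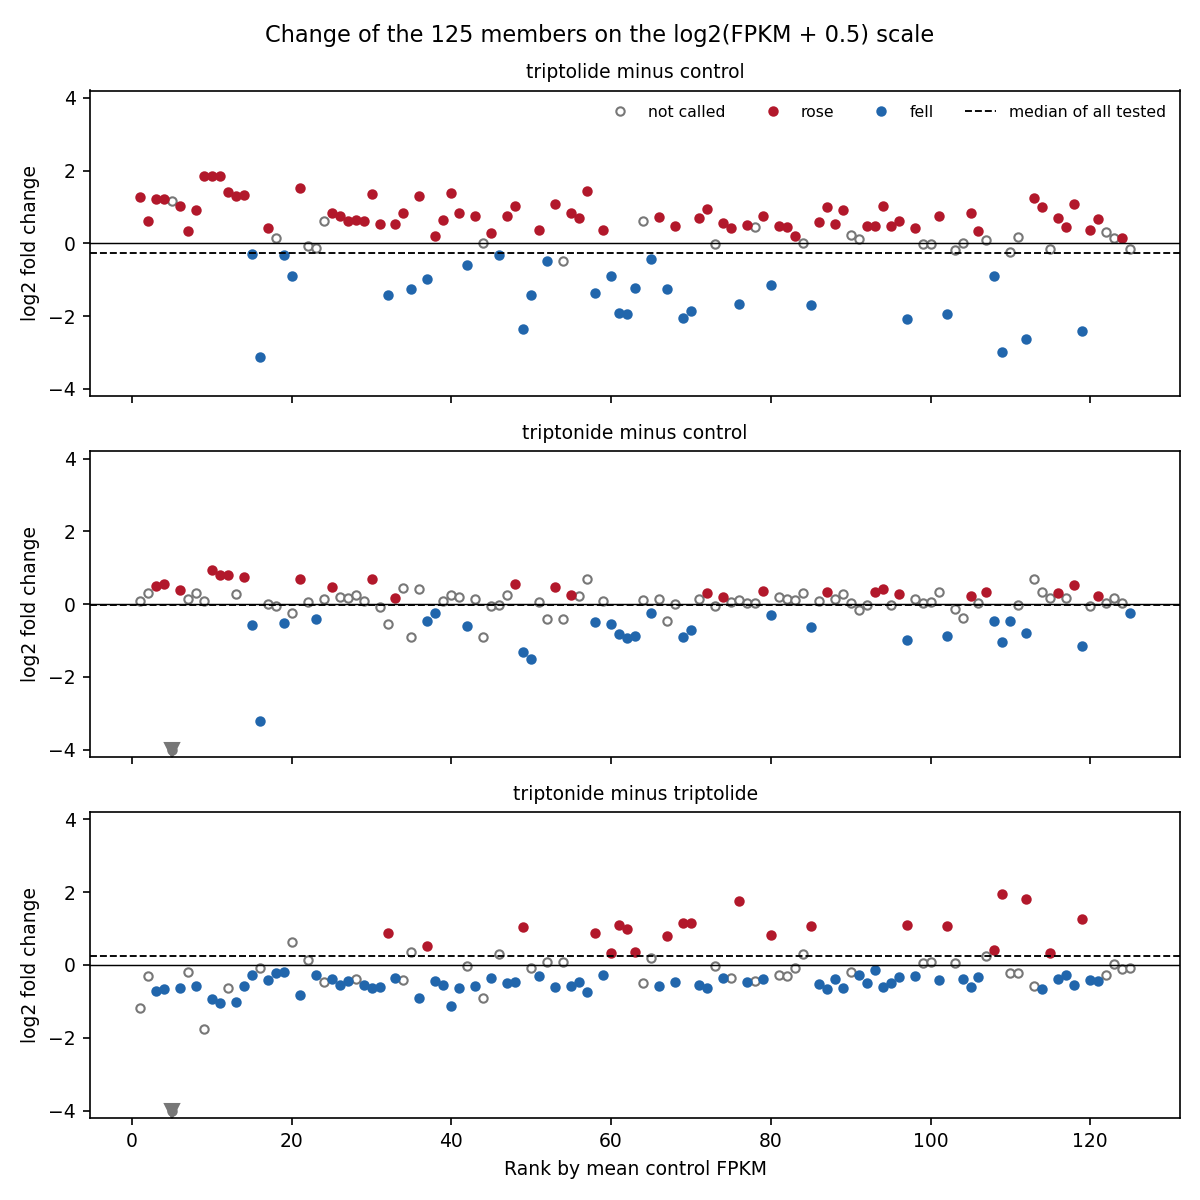
Each point is the log2 fold change (y axis, log2(FPKM + 0.5) scale) of 1 of the 125 members against its rank by mean control FPKM (x axis), in 3 panels for triptolide minus control, triptonide minus control and triptonide minus triptolide. Filled points passed the test, the dashed line is the median of all tested transcripts (-0.26, -0.01 and 0.24 from top to bottom), and the triangles at rank 5 stand for -6.36 and -7.52, beyond the axis. The 71 rises of the top panel and the 64 falls of the bottom panel became 36 and 5 with quantile normalization.

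Triptonide against control gave 26 members that rose and 27 that fell, or 20.8% and 21.6%, where 6.27% rose and 4.36% fell over all tested transcripts. The other 72 did not pass, and for 66 of these the 95% confidence interval lay within 1 log2 unit of 0. Both triptonide libraries lay above both control libraries for 60 members and below them for 41, where the percentages over all transcripts were 28.4% and 29.7%. The median log2 fold change was 0.08 over the members and -0.01 over all transcripts. None of the 26 rises reached 2-fold, a size that 3.57% of all tested transcripts reached, while 5 members fell by at least that much, against 1.03% of all tested transcripts. The rises had a median of 0.41 and the falls one of -0.62. These counts depended on the variance model and on single libraries. Without the intensity trend in the variance model 2 members rose and 10 fell, against 4.91% and 2.3% of all tested transcripts. With no filter on low values 14 rose and 17 fell, against 1.61% and 0.918%. Leaving out control replicate 1 gave 2 rises and 5 falls, control replicate 2 gave 5 and 7, triptonide replicate 1 gave 4 and 13, triptonide replicate 2 gave 0 and 8, and either triptolide replicate gave 13 and 21. The triptolide libraries enter this comparison only through the spread. Leaving out a library also costs a degree of freedom, and the percentages over all transcripts went down too, to 0.831% rises and 0.508% falls without triptonide replicate 2.

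The members named above illustrate the sizes. ENSMUST00000108657 changed by -3.20 ± 0.10 log2 units after triptonide (SE; adjusted p = 0.00153), the largest change of any called member in this comparison. ENSMUST00000080511 changed by -1.04 ± 0.12 (SE; adjusted p = 0.0153), a call that was lost without either control or triptonide replicate 2 (adjusted p = 0.0969, 0.0855 and 0.0623 without control replicate 1, control replicate 2 and triptonide replicate 2). ENSMUST00000083977 rose by 0.93 ± 0.11 (SE; adjusted p = 0.0178) and ENSMUST00000083890 by 0.80 ± 0.13 (SE; adjusted p = 0.0309). Both calls were lost when either control library or either triptonide library was left out, at an adjusted p of 0.0794 to 0.143. Ranks 1, 7 and 9 did not pass, at 0.09, 0.14 and 0.08, with 95% confidence intervals of -0.69 to 0.87, -0.06 to 0.34 and -1.08 to 1.24.

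Triptonide against triptolide gave 64 members that fell and 21 that rose. The control libraries enter this comparison through the shared spread alone. A fall here means a lower level after triptonide than after triptolide. Over all tested transcripts 3.62% fell and 12.1% rose, while the members' percentages were 51.2% and 16.8%. Both triptonide libraries lay below both triptolide libraries for 85 members and above them for 28, where the percentages over all transcripts were 16.3% and 44.9%. The median log2 fold change was -0.36 over the members and 0.24 over all transcripts, a difference of -0.60. The 40 members that did not pass included 31 whose 95% confidence interval lay within 1 log2 unit of 0 and 9 whose interval reached further.

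The number of these calls went down with any 1 library left out, furthest without triptonide replicate 1. Calls over all tested transcripts went down too. The members' median log2 fold change moved little. It was -0.33 without triptonide replicate 1 and -0.36 without triptonide replicate 2. Without triptolide replicate 1 or 2 the medians were -0.34 and -0.37. Without the intensity trend in the variance model 24 members fell and 16 rose, against 2.66% and 9.95% of all tested transcripts. With quantile normalization 5 members fell and 35 rose, and the median turned to 0.05. Over all tested transcripts 5.35% fell and 5.57% rose there. The members' 4.0% of falls was thus no higher, but their 28.0% of rises was. Median-of-ratios scaling gave 82 falls and 13 rises of members, against 7.10% falls and 4.89% rises over all tested transcripts.

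In FPKM as deposited, median differences between the compounds were larger at the top of the list. Medians by class were not recomputed with other scalings. Of the 18 members above 1000 FPKM in control, 11 fell, none rose, and the median log2 fold change was -0.62. Between 500 and 1000 FPKM 12 of 20 fell and 2 rose, with a median of -0.40, and between 200 and 500 FPKM 41 of 87 fell and 19 rose, with a median of -0.29. The falls were mostly small, with a median of -0.50, and 3 of 64 reached 2-fold, where 1.12% of all transcripts did. Of the 21 rises 11 reached 2-fold, against 3.50% of all transcripts, and all 11 were at rank 49 or below. Rank 40 had the largest called fall, at -1.13 with a 95% interval from -1.28 to -0.97 (adjusted p = 0.00637). Rank 40 was chosen for mention after its values were seen.

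The 4 transcripts with an ID were picked on their change after triptolide against control, so triptolide values took part in that choice and their differences between the compounds are given as a description, with no test. ENSMUST00000080511 differed by 1.95 ± 0.12 log2 units (SE), higher after triptonide. ENSMUST00000083977 differed by -0.93 ± 0.11 log2 units (SE), lower after triptonide, and ENSMUST00000083890 by -1.04 ± 0.13 (SE). With quantile normalization the differences of these 3 were 1.87, -0.18 and -0.13. ENSMUST00000108657 differed by -0.07 with a 95% interval from -0.33 to 0.18. Ranks 1, 2 and 9 were lower in both triptonide libraries than in both triptolide libraries but did not pass, with differences of -1.18, -0.31 and -1.76 (adjusted p = 0.0653, 0.0867 and 0.0651). Median-of-ratios scaling brought ranks 1 and 2 past the threshold (adjusted p = 0.0498 and 0.0309), as leaving out triptolide replicate 2 did for ranks 1 and 9 (adjusted p = 0.0457 and 0.0425). With quantile normalization ranks 1 and 2 differed by 0, a result fixed by their unchanged positions.

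The place of the members in the table can be seen by control level. Among the 3162 annotated transcripts between 10 and 50 FPKM in control, 50.6% fell and 11.3% rose after triptolide, and their median log2 fold change was -0.52. Among the 180 transcripts between 100 and 200 FPKM, just below the members, 39.4% fell and 30.6% rose, with a median of -0.01. Among the 87 members between 200 and 500 FPKM, 26.4% fell and 51.7% rose. In FPKM as deposited, the median was below 0 in the classes next below the threshold and above 0 in all 3 classes of members. Where the sign turned may depend on the scaling. Median-of-ratios scaling moved the median over all tested transcripts from -0.26 to -0.01, and medians by class were not recomputed. Transcripts under 1 FPKM had a median of 0.10. For triptonide against triptolide, the medians from the class of 10 to 50 FPKM upwards were 0.36, 0.03, -0.04, -0.29, -0.40 and -0.62.

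**Figure D4:**
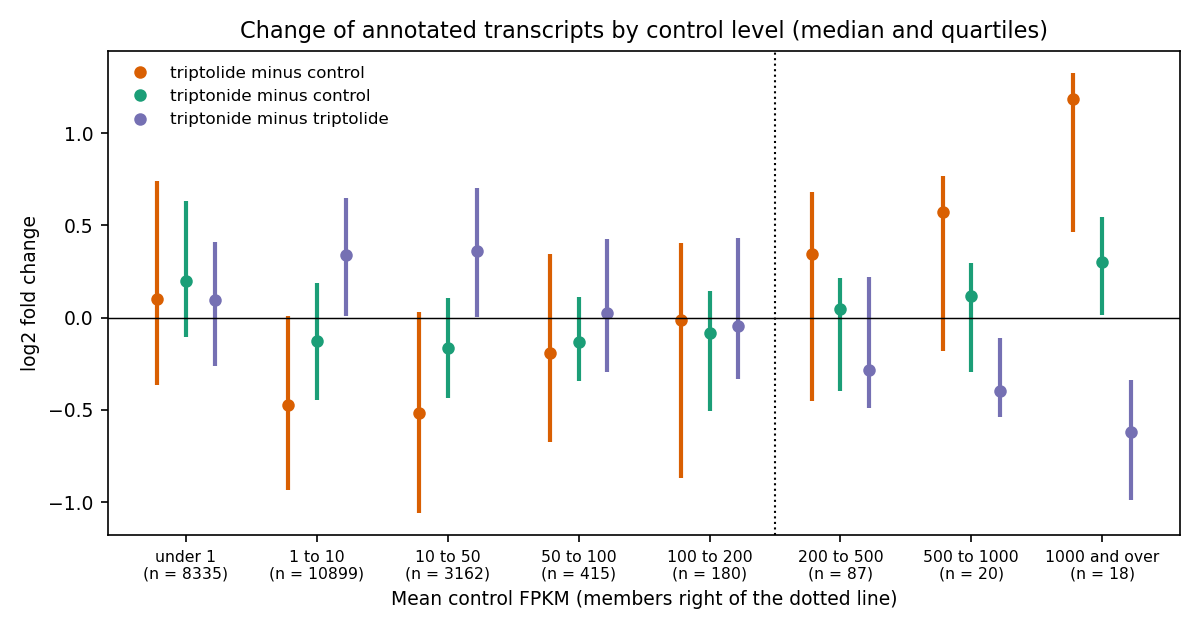
Points give the median and lines the quartiles of the log2 fold change (y axis, log2(FPKM + 0.5) scale) of annotated tested transcripts in 8 classes of mean control FPKM (x axis), with the members right of the dotted line. For triptolide minus control the median is -0.52 at 10 to 50 FPKM and 1.18 at 1000 FPKM and over, for triptonide minus control -0.16 and 0.30, and for triptonide minus triptolide 0.36 and -0.62. Values are FPKM as deposited, and quantile normalization turned the members' median for triptonide minus triptolide to 0.05 and gave 36 rises and 44 falls for triptolide minus control.

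The threshold of 200 FPKM cut through a continuous range. The 5 members just inside it had control means of 203 to 208 FPKM, and the 5 annotated transcripts just outside had 197 to 200 FPKM. The last member inside, rank 125, had 176 and 166 FPKM after triptonide, 179 and 185 FPKM after triptolide, and 207 and 199 FPKM in control. Of the first transcripts outside, the one at position 127 of the annotated rows had 49.7 and 45.6 FPKM after triptonide, 444 and 43.5 FPKM after triptolide, and 192 and 207 FPKM in control. Its triptolide replicates were thus far apart, on either side of its control values.

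Most members stayed above 200 FPKM. By group mean, 107 of 125 did after triptonide and 102 of 125 after triptolide. The lowest group means among the members were 93.9 FPKM after triptonide, at rank 119, and 28.2 FPKM after triptolide, at rank 109. Other annotated transcripts reached the threshold, 16 by the mean after triptonide and 42 by the mean after triptolide. They had held a median of 180 and 167 FPKM in control, and 1 of the 16 and 3 of the 42 came from below 100 FPKM. Of these 3, 1 had 409 and 33.4 FPKM after triptolide and another 9.68 and 423 FPKM. Each thus reached the threshold through 1 library, as did the transcript at position 127 (444 and 43.5 FPKM). The 16 transcripts added 1.08% of the summed FPKM after triptonide and the 42 added 2.07% after triptolide, little beside the members' own 57.9% and 71.6%. Of the 10 transcripts with the highest mean, 9 were members of ranks 1 to 10 after either compound.

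**Figure D5:**
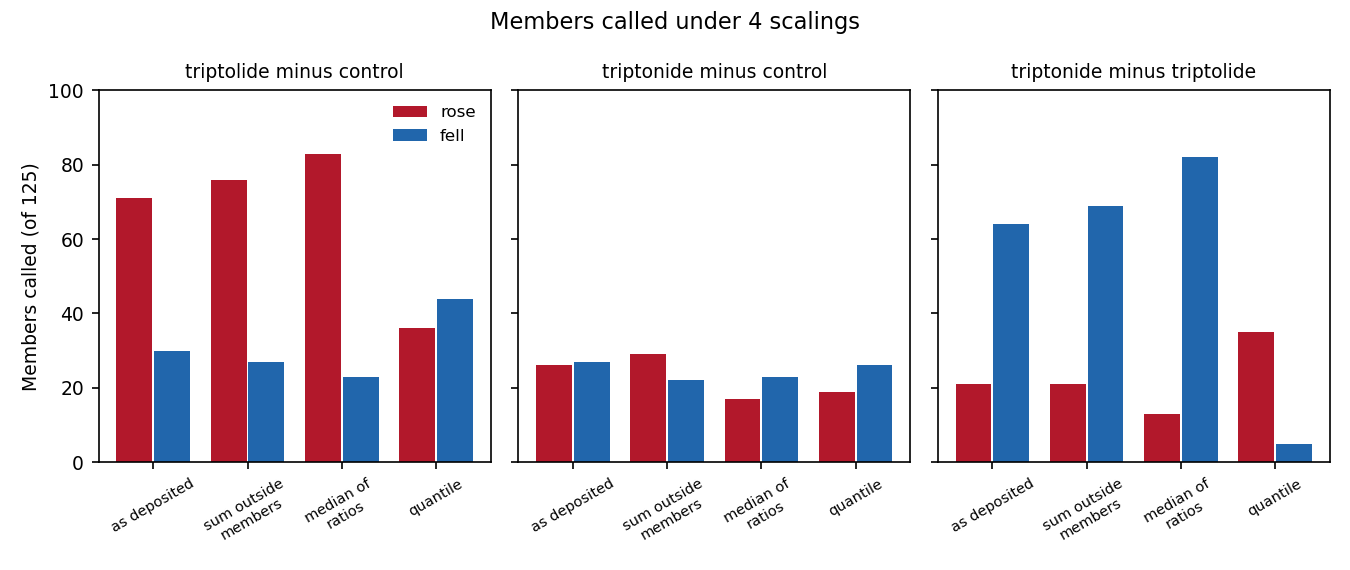
Bars give how many of the 125 members rose or fell (y axis) in each of the 3 comparisons (panels) with deposited FPKM, after division by the sum outside the members, with median-of-ratios scaling and with quantile normalization (x axis). For triptolide minus control the 4 scalings gave 71, 76, 83 and 36 rises and 30, 27, 23 and 44 falls, and for triptonide minus triptolide 21, 21, 13 and 35 rises and 64, 69, 82 and 5 falls. Over all tested transcripts they gave 12.4%, 14.0%, 17.8% and 15.5% rises and 23.1%, 19.7%, 15.0% and 14.9% falls for triptolide minus control. For triptonide minus triptolide these were 12.1%, 9.82%, 4.89% and 5.57% rises and 3.62%, 4.18%, 7.10% and 5.35% falls.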

How the data were processed

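The authors deposited 1 table of FPKM values per transcript and library. STAR and StringTie, without versions, and the build hg19, a human assembly, are named in the submitters' processing notes, whereas IDs are those of mouse Ensembl transcripts, so no coordinates or sequences are given. Per the labels' protocols, libraries were strand-specific, depleted of ribosomal RNA and read from both ends over 150 bases. The table has 65535 rows, as many as an older spreadsheet sheet holds below a header, so it may be cut short, and its sums are not library depths. Absolute depth is unknown. Log2 ratios of the control libraries among values of 0.01 to 0.2 FPKM peaked at 0.285, with 47 transcripts in a bin of 0.01 against a median of 20. Whether values carry steps of whole fragments was not tested.

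Columns were matched to samples by name. The tests used limma 3.58.1 in R 4.3.3, in 1 fit of 3 groups with an intensity trend (3 residual and 1.68 prior degrees of freedom), and were tested on simulated data. The IDs printed are those of the 2 members with the largest rise and the 2 with the largest fall after triptolide among called members whose groups did not overlap. Members and lists were chosen with earlier results of these data known. Gene lists and cell type markers need gene names and were not used here. Alternatives were pseudocounts, filters, scalings, variance models, the replicate number as a block, thresholds of 100 and 500 FPKM, members chosen on 1 control library and measured against the other, and each library left out.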

Additional observations from a re-analysis of the deposited data

Results flagged for a closer look

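One row outside the members, an unannotated transcript of an assembled locus, had a control mean above 200 FPKM and a higher level in both triptolide libraries than in both control libraries. Its mean after triptolide was 5742 FPKM. It had 2278 and 1647 FPKM after triptonide, 7616 and 3868 FPKM after triptolide, and 2609 and 1932 FPKM in control, so triptonide overlapped control. It did not pass the test after triptolide, at a log2 fold change of 1.27 (limma adjusted p = 0.0606).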

How the results depend on the processing

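Ranks 1 to 10, the 4 transcripts with an ID, the medians, and the member counts and shares were recomputed under the alternatives. Counts are given as rises and falls of the members and medians as log2 fold changes. For triptonide against triptolide (21, 64 and -0.36), median-of-ratios scaling gave 13 rises and a median of -0.68, scaling to the sum outside the members a median of -0.43, and no intensity trend 24 falls. Quantile normalization gave 35, 5 and 0.046 and turned ranks 6, 7, 8 and 16 to 0.33, 1.10, 0.59 and 0.056, of which ranks 7 and 8 passed the test (limma adjusted p = 0.0247 and 0.0268). It left ranks 1 to 4 at 0 in all 3 comparisons, a result fixed by their unchanged positions. For triptolide against control (71, 30 and 0.44) it gave 36 rises, a median of 0 and -0.16, -0.17, -0.93 and -0.48 for ranks 5, 6, 7 and 8, where ranks 7 and 8 again passed. Median-of-ratios scaling gave a median of 0.76, and scaling to the sum outside the members 0.55. For triptonide against control (26, 27 and 0.08), no filter gave 14 and 17, median-of-ratios scaling 17 rises, a fit of the groups compared alone 14 rises, no intensity trend 2 and 10, and scaling to the sum outside the members a median of 0.12. Over all tested transcripts, 5.59% rose with median-of-ratios scaling and 4.79% with only the groups compared. Quantile normalization turned rank 9 to -0.34. The cause of these moves was not tested.

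A threshold of 100 FPKM (305 members) gave 73, 104 and -0.18 for triptonide against triptolide, 126, 101 and 0.12 for triptolide against control, and 44, 78 and 0.0014 for triptonide against control. A threshold of 500 FPKM (38 members) gave 2, 23 and -0.45, then 26, 7 and 0.64, then 11, 6 and 0.16. Shares for triptonide, triptolide and control were 64.0%, 76.3% and 60.8% with 100 FPKM, 51.6%, 66.1% and 46.7% with 500 FPKM, and 49.4%, 60.9% and 44.2% without rank 1. Members chosen on control replicate 1 and measured against control replicate 2 had medians of -0.32 between the compounds, 0.41 for triptolide and 0.10 for triptonide. With the control libraries swapped, the medians were -0.36, 0.43 and 0.11. Counting near-equal members once, chosen after seeing the data as was leaving out rank 5, gave -0.36 between the compounds.

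With 1 library left out, rises and falls ranged over 5 to 19 and 1 to 57 between the compounds (median -0.37 to -0.33), 61 to 69 and 25 to 28 for triptolide (0.42 to 0.45), and 0 to 13 and 5 to 21 for triptonide (0.07 to 0.10). Shares ranged over 57.2% to 58.7% for triptonide, 69.5% to 73.7% for triptolide and 52.2% to 55.1% for control. Triptonide effects near 0 changed sign, with rank 1 at -0.085 and -0.052 and rank 9 at -0.21 and -0.027 without control replicate 2 and triptonide replicate 1, within ranges that reached 0.27 and 0.38. Rank 5 ranged from -13.37 without triptonide replicate 1 to 0.64 without triptonide replicate 2, and rank 16 between the compounds turned to 0.063 without triptolide replicate 2. With the replicate number as a block, triptonide gave 5 rises and 13 falls, against 1.79% and 0.765% of all tested transcripts. Ranks 1 and 9 then passed between the compounds (limma adjusted p = 0.0418 and 0.0493). Deviations of same-numbered libraries had r from -0.04 to 0.01 over 23407 transcripts and from -0.15 to 0.13 over the 125 members, and no label ties a number to a shared culture, so the libraries were not treated as paired. FPKM gives no counting error for any member.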
